A study of Homo sapiens with 16 samples.

Results

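Binding of the hypoxia-inducible factors was described at 9 target genes that act in growth control and the response to stress: DDIT4, SESN2, NDRG1, STC1, STC2, ANKRD37, ZNF395, CTDSP1 and PNRC1. Chromatin immunoprecipitation followed by sequencing (ChIP-seq) had been performed with rabbit polyclonal antibodies against HIF-1α (PM14) or HIF-2α (PM9) in 4 human cancer cell lines, A549 from the lung, HCT116 from the colon, PC3 from the prostate and T47D from the breast. All cells had been held at 0.5% oxygen for 16 hours. Line and antibody together gave 8 groups of 2 replicates, and each of the 16 libraries had 1 list of peaks. Members were the peaks whose centre lay within 50 kb of an annotated start site of a protein-coding transcript of 1 of the 9 genes, and they numbered 170 of the 23398 peaks. They merged into 25 of 11664 genomic sites when peaks that shared at least 1 bp were joined across lists. No sample kept in normal oxygen was used here, each tissue was represented by 1 line, and each isoform by 1 antibody, so that line and tissue, or isoform and antibody, cannot be told apart.

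HIF-1α and HIF-2α are the oxygen-regulated subunits of 2 related transcription factors. In well-oxygenated cells prolyl hydroxylation marks them for destruction by the VHL ubiquitin ligase. In hypoxia they persist, pair with HIF-1β and bind DNA at hypoxia response elements built on the letters RCGTG, where R is A or G. Among their targets are genes that slow growth and save energy. The proteins encoded by DDIT4 and SESN2 restrain the growth-promoting kinase complex mTORC1, and NDRG1 is a stress-induced gene linked to differentiation and reduced growth. Stanniocalcins, encoded by STC1 and STC2, are secreted glycoproteins. ZNF395 and CTDSP1 encode a zinc finger protein and a phosphatase that acts on RNA polymerase II. PNRC1 is a nuclear coactivator of hormone receptors and the ankyrin repeat protein ANKRD37 is less well known.

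Peaks within 50 kb were found for 8 of the 9 genes, while 8001 of all 19821 protein-coding genes had no such peak. A site in both replicates of at least 1 group was found for 7, compared with 30.1% of all protein-coding genes. Of the 9 genes, 7 belong to a list of 48 HIF target genes that the study chose partly on these libraries, so that their high number of sites is not independent evidence. SESN2 and STC1 are the members outside that list. Only STC2 and ZNF395 had a site in both replicates of all 8 groups, which 0.237% of all genes had. Without PC3 HIF-2α replicate 1, the shortest list, the count was 4, and the share of all genes was not computed under that change. A HIF-1α peak within 1 kb of a start site was present in all 8 HIF-1α libraries at 4 genes, DDIT4, ANKRD37, CTDSP1 and PNRC1 (0.540% of all genes). Some start sites of CTDSP1 and PNRC1 are alternative ones, and the count was 2 when only the outermost start site of each gene was used. The share of all genes under that rule was not computed either.

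The number of members with a site in both replicates depended on the group. With HIF-1α A549 had 6 members (2.53% of all genes had such a site), HCT116 6 (25.0%), PC3 7 (11.3%) and T47D 7 (5.11%). With HIF-2α A549 had 7 (4.55%), HCT116 5 (3.21%), PC3 3 (1.14%) and T47D 5 (1.27%). A549 was thus the only line with more members bound in the HIF-2α lists than in the HIF-1α lists, a difference of the single gene NDRG1 that was not tested. List length varied from 275 to 4505 peaks and differed between isoforms in opposite directions. In A549 the HIF-2α lists were the longer (1382 and 1056 peaks against 382 and 629), while in HCT116 (1264 and 901 against 4505 and 4465), PC3 (275 and 1290 against 1517 and 3413) and T47D (423 and 424 against 761 and 711) the HIF-1α lists were the longer. The sequencing depth of the libraries is unknown, so that a missing peak says only that none passed the authors' threshold. The part of list length in the results below was not tested except where equal numbers of peaks are named.

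Peak scores were compared as percentiles. The percentile of a peak is the percentage of peaks in the same list with a score no higher than its own, so that 100 is the strongest peak of a library, and a library with no peak at a site was given 0. Of the 25 member sites, 15 had a peak in at least 4 libraries and were tested together with all other such sites of the genome, 1421 in all. The difference between isoforms was tested by exchanging the HIF-1α and HIF-2α labels within cell lines in all 1296 ways, an exact two-sided permutation test whose smallest possible p was 0.00154. The differences between lines were tested in the same way over 264600 exchanges of cell line labels. After Benjamini-Hochberg adjustment over the 1421 sites, with a threshold of 0.05, HIF-1α ranked higher at 3 of the 15 member sites (20%; 10.8% of all tested sites). HIF-2α ranked higher at 0 of 15 (0.0704% of all tested sites, or 1 site, with 26 at an unadjusted p under 0.05). Cell lines differed at 6 of 15 (40%, beside 21.3% of all tested sites). Of these calls, those at DDIT4 +48.6 kb and ZNF395 +20.6 kb were at sites with peaks in 1 line only. Such sites passed the filter of 4 libraries through that line alone. Their p between lines followed from that pattern, so these calls are no support for a difference between lines. The share over all tested sites was not corrected for such sites. All 6 calls between lines were lost without A549 HIF-2α replicate 2 and without PC3 HIF-2α replicate 2. In these repeats no site of the genome was called between lines (554 and 553 at an unadjusted p under 0.05, exact tests). The SDs at DDIT4 +48.6 kb and ZNF395 +20.6 kb, without peaks in A549 or PC3, stayed at 42.0 and 40.2 points. A lost call therefore does not show that a site rested on the library left out. Without A549 HIF-2α replicate 3 or either T47D HIF-2α library, 5 calls were lost, with the ranges of adjusted p given below. None of the 6 was kept without A549, without HCT116, without T47D or when only presence was scored, settings in which no site of the genome was called between lines. When sites in 2 libraries were admitted, 5 were lost. The median difference between isoforms, HIF-1α minus HIF-2α, was 2.23 percentile points over the 15 member sites and 23.9 over all 1421. All adjusted p-values below come from these exact tests.

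**Figure D1:**
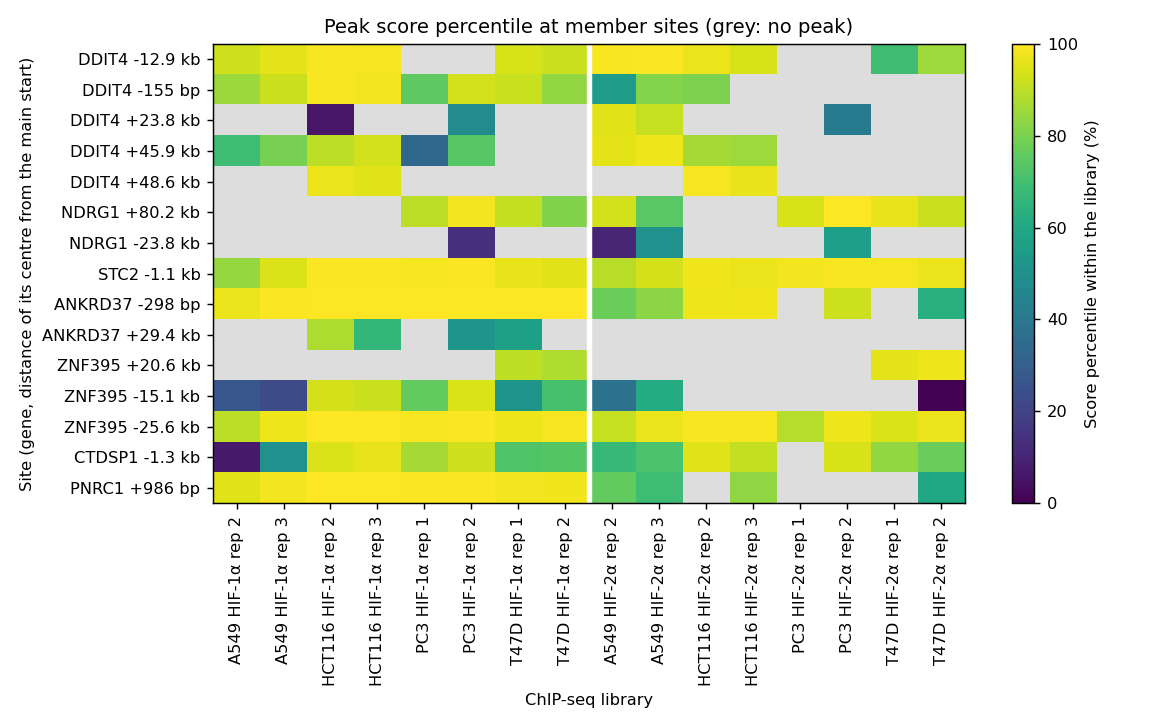
Score percentile within the library (colour, %) of the 15 tested member sites (rows, named by gene and by distance of the site centre from the main start site) in the 16 libraries (columns, HIF-1α left and HIF-2α right of the white line); grey marks a library without a peak. STC2 at -1.1 kb and ZNF395 at -25.6 kb are filled in all 16 libraries, whereas DDIT4 at -12.9 kb is empty in all 4 PC3 libraries.

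DDIT4 (chromosome 10, plus strand, start at 74033678 in GRCh37), whose product inhibits mTORC1 through the TSC complex, had 45 peaks at 7 sites, the most of any member. Its sites in most libraries were one 12943 bp upstream of the start (chr10:74019738-74021663, intergenic, with DDIT4 the nearest gene) and one centred 155 bp upstream, over the start itself (chr10:74032176-74035193). Below, 150 bases of each are printed from the plus strand of GRCh37, because the pair behaved differently between isoforms and lines. Capitals mark RCGTG on either strand, that is ACGTG or the same with G as its first base, and on the other strand CACGT or the same with C as its last base. Each stretch was taken within 300 bp of the site centre, free of annotated UTR, where most of these motifs lie, so their presence is not a finding. The upstream stretch spans chr10:74020660-74020809 and the start-site stretch chr10:74033448-74033597.
DDIT4 upstream site: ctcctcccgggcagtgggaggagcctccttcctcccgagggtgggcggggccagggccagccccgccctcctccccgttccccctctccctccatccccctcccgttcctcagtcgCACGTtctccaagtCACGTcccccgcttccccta
DDIT4 start site: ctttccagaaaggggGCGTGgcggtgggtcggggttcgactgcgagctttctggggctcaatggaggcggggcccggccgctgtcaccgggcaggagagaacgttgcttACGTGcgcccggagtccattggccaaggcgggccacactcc

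At the start site of DDIT4 every HIF-1α library had a peak. The HIF-1α percentiles were 85.1 and 92.1 for A549, 98.8 and 98.4 for HCT116, 75.1 and 93.3 for PC3 and 91.7 and 83.8 for T47D. The HIF-2α percentiles were 54.8 and 81.5 for A549 and 80.3 and 0 for HCT116, and neither PC3 nor T47D had a peak in either HIF-2α library. In each of the 4 lines the lower HIF-1α value was above the higher HIF-2α value. The mean difference was 62.7 points (adjusted p = 0.0233, exact permutation test; the unadjusted p was the smallest the relabellings can give). In A549 the difference was 20.4 points. With the 275 best peaks of each list the difference was 53.6 (adjusted p = 0.0192, exact test).

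The upstream site of DDIT4 was shared by the isoforms in 3 lines and absent from the fourth. HIF-1α percentiles there were 92.7 and 95.9 for A549, 99.2 and 98.7 for HCT116 and 94.0 and 92.0 for T47D. HIF-2α percentiles were 99.1 and 99.3 for A549, 97.2 and 94.0 for HCT116 and 69.3 and 85.4 for T47D. None of the 4 PC3 libraries had a peak. In A549 the HIF-2α peak was the 14th and the 8th strongest of its list. The isoforms differed by 3.51 points on average, which did not pass the test (adjusted p = 0.346, exact permutation test), and the direction differed between lines. The lines differed with an SD of 40.6 points over the 4 line means (adjusted p = 0.0148, exact test), from 97.3 in HCT116 to 0 in PC3; with 1 library left out in turn it passed in 11 of 16 repeats (adjusted p 0.0134 to 0.0726). The same PC3 cells had HIF-1α peaks at the start site, at percentiles 75.1 and 93.3.

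Whether the isoform difference itself differed between neighbouring sites was tested in the same way over all 164 pairs of tested sites within 50 kb of each other, of which 27.4% passed. This comparison was chosen after the data were seen. The isoform difference at the upstream site of DDIT4 minus that at its start site was -59.2 points (adjusted p = 0.0158, exact permutation test). Of the 12 member pairs, 6 passed, and 4 of these 6 involved the DDIT4 start site. These 4 share its values, and each had the unadjusted p of that site alone (0.00154, exact test), the smallest possible. They are no separate support for its call. The isoform difference was 0 by absence at the upstream site in PC3 and at DDIT4 +48.6 kb outside HCT116. The remaining pairs that passed both involved ZNF395 -15.1 kb, at that site's own unadjusted p of 0.00926 (exact test). Their partners included ZNF395 +20.6 kb, which had peaks in T47D only.

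Further sites of DDIT4 lay downstream. At 45877 bp downstream (chr10:74078920-74080352), where DNAJB12 had a nearer start, 10 libraries had a peak. Its percentiles with HIF-1α were 68.8 and 79.3 for A549, 90.0 and 93.1 for HCT116, and 33.9 and 74.0 for PC3. With HIF-2α they were 95.9 and 97.6 for A549, 86.7 and 85.3 for HCT116, and no HIF-2α peak was found in PC3 or any peak in T47D. The lines differed (SD 38.0 points, adjusted p = 0.0215, exact test, kept in 11 of 16 repeats without 1 library, 0.0243 to 0.0656) and the isoforms did not pass (9.20 points, adjusted p = 0.458). A site 48562 bp downstream (chr10:74081353-74083399), also nearer to DNAJB12, had peaks only in the 4 HCT116 libraries. Its percentiles were 97.2 and 95.2 with HIF-1α and 98.8 and 96.6 with HIF-2α. The adjusted p between lines was 0.0340 (exact test), kept in 5 of the 12 repeats in which it could be tested (0.0386 to 0.0726). This site passed the filter of 4 libraries through HCT116 alone, so its p between lines followed from the pattern and is no support. A site 23817 bp downstream (chr10:74056508-74058392), with no nearer gene, had its strongest peaks with HIF-2α in A549, at 95.7 and 91.2, and weaker ones in HCT116 HIF-1α replicate 2 (6.22), PC3 HIF-1α replicate 2 (48.3) and PC3 HIF-2α replicate 2 (41.2). The isoform difference there was -21.7 points and did not pass (adjusted p = 0.347, exact test). The 2 remaining sites of DDIT4, with fewer than 4 libraries, lay 29850 bp upstream, in both A549 HIF-2α libraries, and 18622 bp upstream, in 1 HCT116 HIF-1α library. PC3 thus lacked both the -12.9 kb and the +48.6 kb site of DDIT4, and T47D lacked all of the downstream ones.

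**Figure D2:**
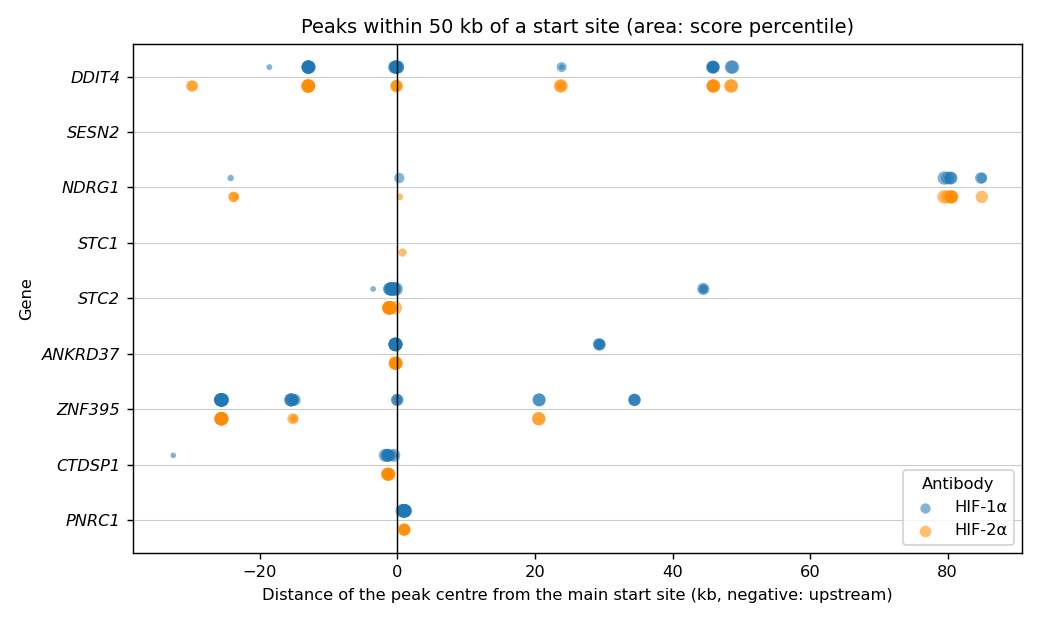
Signed distance in kb of each member peak centre from the main start site of its gene (negative is upstream), for HIF-1α (blue) and HIF-2α (orange) libraries; each point is 1 library's strongest peak at a site, and its area rises with the score percentile. DDIT4 has sites on both sides of its start, the NDRG1 peaks gather about 80.2 kb downstream of its main start, and SESN2 has none.

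SESN2 (chromosome 1, plus strand, start at 28586029), which encodes a sestrin that restrains mTORC1 when amino acids are scarce, had 0 peaks within 50 kb in any of the 16 lists. The nearest peak lay 94775 bp from its start, was present in 1 library and was nearest to PHACTR4. Binding below the threshold of the lists was not detectable here.

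STC2 (chromosome 5, minus strand, main start at 172755417) had a site upstream of its start in all 16 libraries (chr5:172753688-172757722, centre 1055 bp upstream). The region is 4035 bp wide because peak centres ran from -1277 to -187 bp, counted from the main start, and 885 bp were common to all its peaks. The stretch printed, chr5:172756546-172756695 on the plus strand, is shown because it belongs to a site bound by both isoforms in every line. It holds 4 RCGTG motifs (capitals).
STC2 upstream site: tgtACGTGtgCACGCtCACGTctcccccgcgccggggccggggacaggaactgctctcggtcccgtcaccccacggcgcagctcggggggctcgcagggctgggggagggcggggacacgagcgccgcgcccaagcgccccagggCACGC

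The HIF-1α percentiles at this STC2 site were 84.0 and 94.9 for A549, 99.5 and 99.4 for HCT116, 98.5 and 99.6 for PC3 and 96.7 and 95.6 for T47D. With HIF-2α they were 89.2 and 93.5 for A549, 98.0 and 97.2 for HCT116, 98.2 and 99.0 for PC3 and 98.6 and 97.2 for T47D. All values were high, with the lowest in A549. The isoforms differed by -0.32 points (adjusted p = 0.870, exact permutation test), a mean of 96.0 with HIF-1α and 96.4 with HIF-2α. The spread over lines was small, an SD of 3.41 points, and passed the test (adjusted p = 0.0167, exact test). It was below the SD of 7.69 points between the 2 HIF-1α replicates of A549, the line with the lowest mean. Without A549 the SD over lines was 0.785 points (adjusted p = 0.171, exact test), a setting in which no site of the genome was called between lines. The line means were 90.4 in A549, 98.5 in HCT116, 98.8 in PC3 and 97.0 for T47D. This call between lines was kept in 2 of the 16 repeats that left out 1 library, with adjusted p-values from 0.0214 to 0.151. It was lost with log10 scores (adjusted p = 0.296, exact test), while with equal lists the SD was 9.37 points (adjusted p = 0.0106, exact test). Other STC2 sites were 44484 bp downstream, in 3 HIF-1α libraries, and 3531 bp upstream, in 1. Beyond the 50 kb window, the nearest peak lay 126432 bp from a start of STC2, which was the nearest gene, in a site found in 8 libraries.

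STC1, the other stanniocalcin gene (chromosome 8, minus strand, main start at 23712319), had a single peak. It was in A549 HIF-2α replicate 2 (chr8:23711250-23712171), 609 bp downstream of the main start in an intron of the main transcript and 114 bp from an alternative start, at percentile 31.1. The other A549 HIF-2α library and all 14 libraries of the other groups had none, so that STC1 had a site in both replicates of no group. The paralogues thus stood at opposite ends, with STC2 in 16 libraries and STC1 in 1.

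NDRG1 (chromosome 8, minus strand, main start at 134309495) was bound away from its main start. Its site in most libraries (chr8:134228112-134231916) was centred 80206 bp downstream of the main start, 20129 bp past the end of the main transcript and inside the neighbouring gene CCN4, whose start was nearer (25909 bp). It fell within the window because of an alternative NDRG1 start 29617 bp away. With HIF-1α its percentiles were 89.9 and 98.2 for PC3 and 90.9 and 81.0 for T47D, and A549 had no peak. With HIF-2α they were 93.3 and 74.3 for A549, 93.8 and 99.8 for PC3 and 96.7 and 92.0 for T47D. None of the HCT116 libraries had a peak at this site. In PC3 the HIF-2α peaks were the 18th and the 3rd strongest of their lists.

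The lines differed at this NDRG1 site (SD 38.9 points, adjusted p = 0.0190, exact permutation test, kept in 11 of 16 repeats without 1 library, 0.0176 to 0.0754), with means of 95.4 in PC3, 90.2 in T47D, 41.9 in A549 and 0 for HCT116. The isoform difference of -23.8 points, HIF-2α having the higher mean in 3 lines and HCT116 having no peak, did not pass (unadjusted p = 0.0278, adjusted p = 0.0891, exact test), and most of it came from A549 (-83.8 points). When sites had to be present in at least 8 libraries, or lists were limited to 275 peaks, it passed the threshold (adjusted p-values over all alternatives from 0.0294 to 0.537). No base was common to all peaks of this merged region, whose centres ran from 79229 to 80629 bp, so that it may hold more than 1 site. A further region centred 84967 bp downstream was found in 3 PC3 libraries. NDRG1 also had a site 23801 bp upstream of the main start, with percentiles of 10.9 and 50.7 in the A549 HIF-2α libraries, 13.9 in PC3 HIF-1α replicate 2 and 56.6 for PC3 HIF-2α replicate 2 (isoform difference -13.0, adjusted p = 0.347, exact test). At the main start itself, a site centred 300 bp downstream was listed in 1 HIF-1α and 1 HIF-2α library, at percentiles 52.9 in HCT116 and 16.5 for A549. Just beyond the 50 kb window, the nearest peak lay 54211 bp from a start of NDRG1, which was the nearest gene. Its site was found in 3 libraries.

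ZNF395 (chromosome 8, minus strand, main start at 28243977) was, with STC2, the member bound in every library. The site shared by all 16 (chr8:28268789-28270394) was intergenic, 25601 bp upstream of the main start and 9360 bp from the nearest alternative start of ZNF395, with no nearer gene. Its HIF-1α percentiles were 90.1 and 97.3 for A549, 99.8 and 99.8 for HCT116, 99.2 and 99.3 for PC3 and 97.6 and 98.5 for T47D. The HIF-2α percentiles were 91.0 and 97.2 for A549, 98.9 and 99.1 for HCT116, 88.7 and 97.5 for PC3 and 94.3 and 96.9 for T47D. HIF-1α was higher without overlap in HCT116, PC3 and T47D, and the isoforms overlapped in A549. Neither the isoform difference (2.23 points, adjusted p = 0.225) nor the SD over lines (1.97 points, adjusted p = 0.207) passed the exact tests. The isoform difference did pass with log10 scores in place of percentiles (0.45 on the log10 scale, adjusted p = 0.0266, exact test) and without A549 (3.11 points, adjusted p = 0.0492, exact test), and over all alternatives its adjusted p ran from 0.0266 to 1.

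A second ZNF395 site lay 15149 bp upstream of the main start and 1092 bp from an alternative start (chr8:28258165-28260622). HIF-1α percentiles were 27.2 and 23.1 for A549, 93.5 and 91.9 for HCT116, 75.8 and 94.2 for PC3 and 51.9 and 71.0 for T47D. HIF-2α percentiles were 37.7 and 61.6 for A549 and 0 and 0.708 for T47D, with no HIF-2α peak in HCT116 or PC3. Thus HIF-1α ranked higher without overlap in 3 lines, by 92.7 points in HCT116, 85.0 in PC3 and 61.1 for T47D, and lower in A549, by -24.5. The mean of 53.6 points did not pass (unadjusted p = 0.00926, adjusted p = 0.0553, exact permutation test). It exceeded the isoform difference at the shared upstream site by 51.3 points (unadjusted p = 0.00926, adjusted p = 0.0345, exact test over the 164 pairs). The unadjusted p equals that of the site alone. The pair passed only because its adjustment ran over 164 pairs and not over 1421 sites. It therefore adds no support to the isoform difference that did not pass.

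Inside ZNF395, a site 20567 bp downstream of the main start, in an intron of the main transcript (chr8:28222801-28223895), was present in all 4 T47D libraries and in none of the other 12. Its percentiles were 90.5 and 88.0 with HIF-1α and 95.7 and 97.4 with HIF-2α (isoform difference -1.82, adjusted p = 0.389, exact permutation test). The adjusted p between lines was 0.0340 (exact test), kept in 9 of the 12 repeats in which it could be tested (0.0293 to 0.0695). This site passed the filter of 4 libraries through T47D alone, so its p between lines followed from the pattern and is no support. The main start itself carried peaks in 3 HIF-1α libraries only (76.7 and 78.3 for HCT116, 29.5 in PC3 replicate 2), and so did a site 34469 bp downstream, 425 bp from an alternative start (85.9 and 73.0 for HCT116, 70.0 in PC3 replicate 2). Both had fewer than 4 libraries and were not tested.

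CTDSP1 (chromosome 2, plus strand, main start at 219264591) had 1 site in 15 of 16 libraries (chr2:219261296-219265915), centred 1318 bp upstream of the main start and 212 bp from an alternative start. Its HIF-1α percentiles were 7.07 and 50.7 for A549, 94.7 and 96.7 for HCT116, 86.6 and 92.9 for PC3 and 72.8 and 73.6 for T47D. The HIF-2α percentiles were 66.9 and 71.7 for A549, 94.9 and 90.7 for HCT116, 0 and 94.0 for PC3 and 83.7 and 77.1 for T47D. The missing peak was in the shortest list, that of PC3 HIF-2α replicate 1 with 275 peaks. Mean levels were 71.9 with HIF-1α and 72.4 with HIF-2α, a difference of -0.495 points (adjusted p = 0.998, exact permutation test). By line the difference was -40.4 points in A549 and 42.7 in PC3. The PC3 value rested on the 0 of HIF-2α replicate 1, as replicate 2 (94.0) was above both HIF-1α values. Without PC3 HIF-2α replicate 1 the mean difference over the lines was -12.2 points. The SD over lines was 16.3 points and did not pass (adjusted p = 0.262, exact test). One more peak, 32599 bp upstream and nearer to SLC11A1 and CATIP, was listed in 1 PC3 HIF-1α library.

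ANKRD37 (chromosome 4, plus strand, main start at 186317995) had the highest mean HIF-1α percentile of the members. The site (chr4:186316714-186318666) was centred 298 bp upstream of the main start, downstream of an alternative start. The stretch chr4:186317612-186317761 on the plus strand is printed because this peak stood at or near the top of the HIF-1α lists. It holds 3 RCGTG motifs (capitals).
ANKRD37 start site: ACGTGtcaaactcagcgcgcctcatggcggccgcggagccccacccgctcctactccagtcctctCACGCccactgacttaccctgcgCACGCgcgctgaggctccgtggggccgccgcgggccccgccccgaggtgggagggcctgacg

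Ranks of score within a list count only the peaks with a higher score, so that tied peaks share a rank. By this rank the ANKRD37 peak was 12th and 5th in the A549 HIF-1α libraries, 2nd in both of HCT116, 3rd in both of PC3 and 1st in both of T47D. With HIF-2α it was 309th and 184th in A549, 33rd and 22nd in HCT116, 97th in PC3 replicate 2 and 160th in T47D replicate 2, and missing from replicate 1 of PC3 and of T47D. As percentiles, HIF-1α ran from 97.1 to 100 and HIF-2α was 77.7 and 82.7 for A549, 97.5 and 97.7 for HCT116, 0 and 92.6 for PC3 and 0 and 62.5 for T47D. HIF-1α was higher without overlap in each of the 4 lines, by 35.7 points on average (99.5 against 63.8, adjusted p = 0.0233, exact permutation test). The difference ranged from 2.41 points in HCT116 to 68.8 in T47D. The call was lost in 4 of the 16 repeats that left out 1 library, those without a PC3 or a T47D HIF-1α library, with adjusted p up to 0.135; the difference ran from 24.1 to 47.3 over the 16 repeats. A second site within the window, 29355 bp downstream (chr4:186346607-186348006), lay 53 bp from a start of C4orf47 and also nearer to UFSP2. It had peaks in 4 HIF-1α libraries (87.5 and 66.3 for HCT116, 51.6 in PC3 replicate 2, 57.0 in T47D replicate 1) and no HIF-2α library (difference 32.8, adjusted p = 0.133, exact test).

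PNRC1 (chromosome 6, plus strand, main start at 89790470) had a single site (chr6:89790177-89792323), centred 986 bp downstream of the main start in an intron of the main transcript and 99 bp from an alternative start. The stretch chr6:89791381-89791530 on the plus strand is printed because its peak showed one of the clearest isoform differences among the members. It holds 1 RCGTG motif (capitals).
PNRC1 intron site: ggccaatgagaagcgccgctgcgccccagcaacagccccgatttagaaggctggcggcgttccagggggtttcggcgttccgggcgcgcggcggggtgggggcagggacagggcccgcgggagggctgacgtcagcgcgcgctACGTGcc

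The HIF-1α percentiles at PNRC1 were 95.0 and 98.4 for A549, 99.7 and 99.8 for HCT116, 99.4 and 99.6 for PC3 and 98.4 and 97.9 for T47D. With HIF-2α they were 75.8 and 68.8 for A549, 0 and 83.6 for HCT116 and 0 and 59.7 for T47D, and PC3 had no peak. HIF-1α was thus near the top of every list and above every HIF-2α value. The mean difference was 62.5 points (98.5 against 36.0, adjusted p = 0.0233, exact permutation test), from 24.4 in A549 to 99.5 in PC3. It was 85.0 with the 275 best peaks of each list (adjusted p = 0.0104, exact test). The lines did not differ beyond the test (SD 12.5 points, adjusted p = 0.543, exact test).

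**Figure D3:**
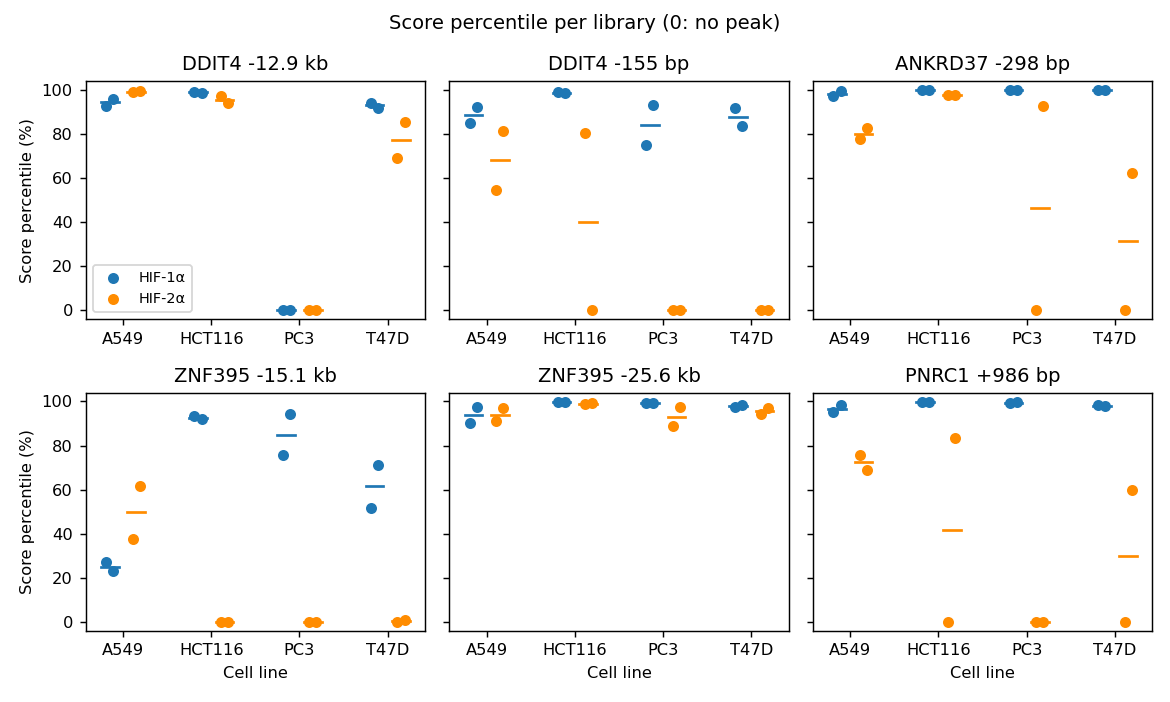
Score percentile (vertical axis, %; 0 means no peak) of 6 member sites in each cell line; each point is 1 library, and each bar is the mean of the 2 replicates for HIF-1α (blue) or HIF-2α (orange). At DDIT4 -155 bp, ANKRD37 -298 bp and PNRC1 +986 bp the HIF-1α points are above the HIF-2α points in all 4 lines, at DDIT4 -12.9 kb PC3 is at 0, and at ZNF395 -15.1 kb the order in A549 is the opposite of that in the other lines.

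The 3 calls between isoforms, at the DDIT4 start, ANKRD37 and PNRC1, held with log10 scores, with equal numbers of peaks, with a score threshold at the median and with peaks trimmed to 500 bp. All 3 were lost when only the presence of a peak was scored, when HCT116, PC3 or T47D was left out, and when sites in 2 libraries were admitted, though the direction stayed. Over all alternatives the adjusted p ran from 0.00515 to 0.132 at DDIT4, to 0.673 at ANKRD37 and to 0.176 at PNRC1. With 3 lines the smallest p the relabellings allow is 0.00926.

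**Figure D4:**
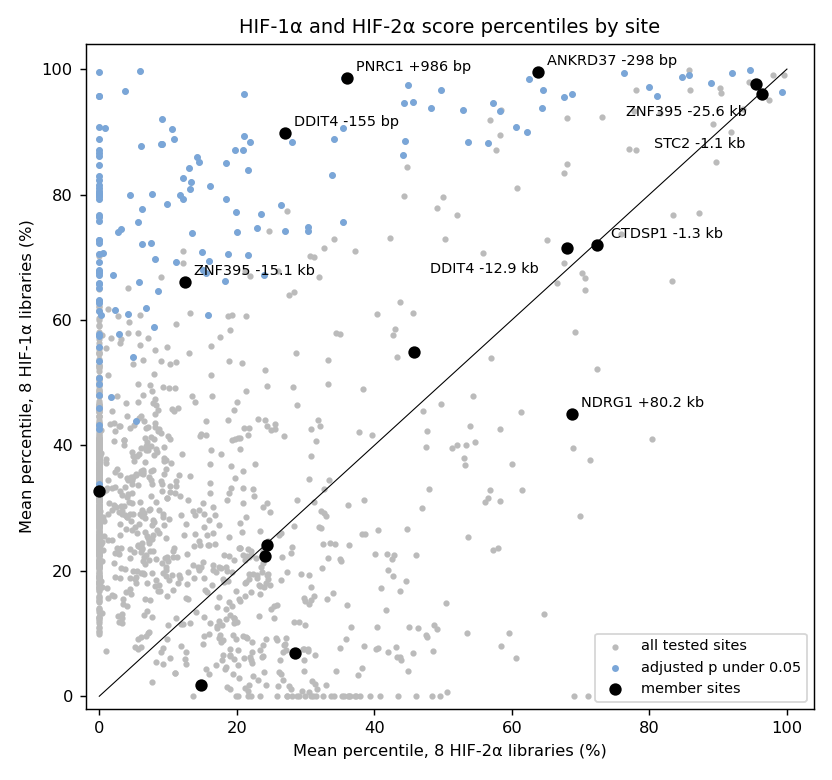
Mean score percentile (%) over the 8 HIF-1α libraries (vertical) against that over the 8 HIF-2α libraries (horizontal) for the 1421 tested sites (grey), those with an adjusted p under 0.05 between isoforms (light blue) and the 15 member sites (black). PNRC1, ANKRD37 and the DDIT4 start site are far above the diagonal, and STC2, ZNF395 -25.6 kb, CTDSP1 and DDIT4 -12.9 kb lie close to it.

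The middle 200 bp of every peak were searched for RCGTG on either strand. The motif was found in 132 of 170 member peaks, 77.6% (Wilson 95% interval 70.8 to 83.3, counting error only), against 59.9% of all peaks. Peaks of different libraries at 1 site share their sequence, so that the interval is too narrow for sites. By gene the share was 100% of 18 peaks at ANKRD37, 87.5% of 16 at CTDSP1, 85.0% of 20 at STC2, 82.2% of 45 at DDIT4, 67.6% of 37 at ZNF395, 61.9% of 21 at NDRG1 and 58.3% of 12 at PNRC1, and the single STC1 peak held one. Member peaks had the motif in 70.4% of 98 with HIF-1α and 87.5% of 72 with HIF-2α, while over all peaks the shares were 62.4% and 54.2%. In the central 100 bp the member share was 55.9%, and in whole peaks 100%.

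For each principal site, the one in most libraries for its gene, the site elsewhere in the genome with the most similar 16 percentiles was found by the mean absolute difference. The closest matches were at LDHA for ZNF395 (2.02 points), at ALDOA for STC2 (3.0), at RBPJ for ANKRD37 (7.08), at NOL3 for CTDSP1 (7.49) and at BNIP3L for PNRC1 (9.67). The upstream site of DDIT4, nearest to TMEM63B at 19.3 points, and the NDRG1 site, nearest to OR1I1 at 12.3, had no close match. These are descriptions over 16 libraries that share list length and line.

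Further genes were counted in the same way, in lists of related pathways and of paralogues. The members were chosen with results of these libraries known, so their counts stand beside the others as a description. Of 15 further genes of mTORC1 signalling, 8 had a site in both replicates of at least 1 group, as did 6 of 13 genes of the integrated stress response, 7 of 10 genes of growth arrest and the p53 response and 2 of 8 paralogues of the members, beside the 30.1% of all genes given above. None of these 46 genes had a site in all 8 groups. The median number of groups with a site was 6 for the members, 1 for the mTORC1 list, 0 for the stress response list, 1 for the growth arrest list, 0 for the paralogues and 0 over all genes. Their sites in at least 4 libraries numbered 6 for the mTORC1 list, 6 for the stress response, 7 for growth arrest and 0 for the paralogues, where no call was possible. Of these 19 tested sites 0 were called between isoforms in the exact tests (7 at an unadjusted p under 0.05), where 10.8% of all tested sites were called for HIF-1α. Between lines 4 of the 19 were called (21.3% of all tested sites), 1 of the mTORC1 list and 3 of the stress response list. These calls lay within 50 kb of TSC2, an mTORC1 inhibitor (SD 20.0 points, adjusted p = 0.0377, exact permutation test, 37951 bp away and nearest to NPW), and of TRIB3, a stress-induced pseudokinase, where 3 sites passed (the first 35752 bp away, nearest to SOX12, SD 31.2 points, adjusted p = 0.0340).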

How the data were processed

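ChIP-seq peak lists of 16 libraries were used. The authors trimmed reads with Trim Galore 0.3.3, aligned them to GRCh37 with BWA 0.7.5a-r405, filtered them with SAMtools 0.1.19, bedtools 2.17.0 and Picard 2.0.1, and called peaks per library with MACS in control mode (tools and versions per the submitters' processing notes and methods). The version of MACS is not given in the sources used here. Each deposited peak carried a score from the peak caller, of unstated scale, which was used only by rank or threshold. The lowest score was 50.0 to 50.15 in every list. Lists hold no read totals, so depth is unknown, and they precede the study's later filters. The paper's methods also name a second peak caller, T-PIC, and retain peaks that both callers found. Those peaks had further to exceed a background threshold and to overlap between replicates. The 29 peaks off chromosomes 1 to 22, X and Y were left out of sites. Start sites came from GENCODE release 44 mapped to GRCh37.

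Groups were taken from the labels. Peaks sharing 1 bp were merged, and sites with peaks in at least 4 libraries were compared by exact permutation of score percentiles in Python 3.11.15 (numpy 2.4.6, pandas 2.3.3, scipy 1.17.1, pysam 0.24.0), tested on simulated data. Nothing states that replicates were separate cultures, so p-values measure the spread between these libraries. All 9 members were named, with the principal site being that in most libraries. Sites in at least 4 libraries were described, and other pathway genes were named only where called. The members, lists and tests were chosen with earlier results of these data known. Alternatives were score scale, list length, thresholds, merging, filters, windows, start sites, replicate block and leaving out libraries or lines.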

Additional observations from a re-analysis of the deposited data

Results flagged for a closer look

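At 4 of the 15 tested member sites the isoforms stood in opposite order, without overlap between replicates, in different cell lines. The share over all 1421 tested sites was not computed, so this count is a description only. None of these differences between lines was tested, and each rests on 2 libraries of each isoform in a line. At the DDIT4 site 12.9 kb upstream HIF-1α ranked higher in HCT116 and T47D and HIF-2α in A549, with the isoform difference spanning 20.6 percentile points from the lowest to the highest line. At the DDIT4 site 45.9 kb downstream HIF-1α ranked higher in HCT116 and PC3 and HIF-2α in A549, over a span of 76.6 points. At STC2 HIF-1α ranked higher in HCT116 (1.85 points) and HIF-2α in T47D (-1.70). The span of 3.72 points there ran from A549 (-1.87), where the isoforms overlapped, to HCT116. At the ZNF395 site 15.1 kb upstream HIF-1α ranked higher in HCT116, PC3 and T47D and HIF-2α in A549, over 117 points. A549, the line in which HIF-2α ranked higher at 3 of these 4 sites, was also the line with longer HIF-2α lists (1382 and 1056 peaks against 382 and 629), and the part of list length in these values was not tested.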

How the results depend on the processing

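The whole-genome counts moved with the processing. With log10 scores 671 sites ranked higher with HIF-1α and 20 with HIF-2α, against 154 and 1. Scoring presence only left 0, 0 and, between lines, 0 sites (312, 9 and 277 at an unadjusted p under 0.05 in the exact tests). Equal lists of 275 peaks gave 20 sites with HIF-2α and 142 between lines of 352 tested (5.68% and 40.3%), against 303 of 1421 between lines. The median score threshold gave 3 and 147 of 749 (0.401% and 19.6%), and a filter of 8 libraries gave 10 and 122 of 314 (3.18% and 38.9%). With sites in 2 libraries, 4722 tested, the isoform counts were 0 and 0 (445 and 26 unadjusted), and 33 differed between lines. The replicate block, pairing by number, gave 0 and 0 (279 and 18 unadjusted), its smallest p being 0.00781, and so called none of the member sites. Same-numbered libraries deviated together with r of only 0.0226 to 0.0796, so they share a number and nothing more is known. Without A549 no site was called for HIF-2α (0, with 1 unadjusted) or between lines (0, with 318). Leaving out HCT116, PC3 or T47D gave 0 for either isoform (176, 184 and 238 unadjusted for HIF-1α; 5, 5 and 23 for HIF-2α), and 0 between lines without HCT116 or T47D (188 and 289).

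Leaving out 1 library gave 93 to 284 sites for HIF-1α, most without A549 HIF-1α replicate 2 and fewest without replicate 3. It gave 0 to 13 for HIF-2α and 0 to 330 between lines, the 0 between lines without A549 HIF-2α replicate 2 or PC3 HIF-2α replicate 2 (554 and 553 unadjusted). For HIF-2α the 0 came without HCT116 HIF-2α replicate 3 or PC3 HIF-2α replicate 2 (35 and 14 unadjusted). Members with a site in all 8 groups numbered 2 to 4 without 1 library and 5 with a peak in either replicate. Members with a start-site HIF-1α peak in all 8 libraries numbered 2 with 1 start per gene and 2 with equal lists. For none of these changed member counts was the share of all genes computed. The motif share of member peaks moved to 55.9% in the central 100 bp and 100% in whole peaks, widths at which all peaks were not counted.

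Differences near 0 changed sign. The STC2 difference was 0.28 with log10 scores, 3.14 with equal lists, 0.196 without A549, 0.139 without T47D, and -1.68 to 1.04 without 1 library. The CTDSP1 difference was 0.063 with log10 scores, 0.125 as presence, 0.401 with the score threshold, -25.5 with equal lists (adjusted p = 0.0785, exact test), -14.9 without PC3 (adjusted p = 0.176), 12.8 without A549, 1.75 without T47D, and -12.2 to 11.3 without 1 library. The DDIT4 upstream difference was -0.533 without T47D. The cause of these changes was not tested, and none of these values passed. Fewer samples raise the smallest possible p. Depth is unknown, so absence from a list limits every statement.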
